A study of Mus musculus with 2 samples.

Results

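The alpha- and beta-globin gene clusters of the mouse were examined in chromatin immunoprecipitation sequencing (ChIP-seq) of MAFK, which maps the DNA bound by a protein by sequencing the fragments that an antibody pulls down. The members were the beta-globin genes Hbb-bt, Hbb-bs, Hbb-bh1 and Hbb-y on chromosome 7 and, on chromosome 11, the alpha-globin genes Hba-x, Hba-a1 and Hba-a2 with their neighbour Nprl3. Every enriched region whose summit, the position of its highest signal, lay no more than 100 kb from any transcription start site (TSS) of these 8 genes was taken. This gave 6 of the 16865 regions of the optimal list and 78 of the 300000 regions of the relaxed list. The authors thresholded the optimal list by the irreproducible discovery rate, a measure of how reproducible a call is. Of its regions, 97.8% overlapped a relaxed region of both replicates, and 35.4% overlapped both replicates' own thresholded lists. Membership alone therefore does not show a thresholded call in each replicate. The relaxed list was called on both replicates pooled and also holds background by design.

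The cells were ES-E14, a male mouse embryonic stem cell line of strain 129/Ola, not described in the labels as modified or treated. There was 1 group with 2 biological replicates and no second condition. Both replicates came from 1 biosample, so the spread between them may be partly technical. The experiment mapped where MAFK lies in these cells, and each comparison below is therefore between regions, between lists or between replicates.

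MAFK is a small MAF protein, a basic leucine zipper factor that binds DNA but lacks an activation domain of its own. It pairs with larger partners such as NFE2, NFE2L2 and BACH1, and the pairs recognise MAF recognition elements, in which an AP-1-like core is extended on 1 side or both by a MAF core. In red cell precursors, globin genes are controlled by distant enhancers: the beta-globin locus control region lies upstream of the embryonic gene Hbb-y, and the enhancers of the alpha-globin genes lie largely within the introns of Nprl3. NFE2 and small MAF proteins were studied early at the locus control region, whose hypersensitive site HS2 is known for a tandem pair of NFE2 elements. Embryonic stem cells are not erythroid.

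The sequences around the summits of 5 of the 6 optimal regions are shown first, since the elements they hold separate the strongest region from the rest. Each is the plus strand of GRCm38 (mm10, strain C57BL/6J), from 50 bp before to 50 bp after the summit. Capitals mark 2 composite elements in the first sequence, that is an AP-1 element (TGACTCA or TGAGTCA) that runs into a MAF core. Capitals mark an antioxidant response element core (TGACNNNGC or TGAGNNNGC) in the distal beta, Nprl3 and Sh3pxd2b sequences, where the last is on the minus strand, and the MAF core (TGCTGA) downstream of Hba-x. Whether the 129/Ola genome carries the same letters was not tested.
Upstream of Hbb-y, chr7:103861022-103861122: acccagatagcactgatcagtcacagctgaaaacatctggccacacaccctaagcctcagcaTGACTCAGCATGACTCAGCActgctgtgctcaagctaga
Distal beta, chr7:103919394-103919494: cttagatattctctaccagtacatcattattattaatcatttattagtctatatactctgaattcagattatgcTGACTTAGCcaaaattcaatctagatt
Nprl3 intron, chr11:32243351-32243451: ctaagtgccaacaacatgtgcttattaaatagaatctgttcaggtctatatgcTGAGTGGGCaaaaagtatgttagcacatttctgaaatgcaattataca
Downstream of Hba-x, chr11:32278569-32278669: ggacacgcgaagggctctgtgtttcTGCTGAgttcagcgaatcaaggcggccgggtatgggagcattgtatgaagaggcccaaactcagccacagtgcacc
Sh3pxd2b intron, chr11:32383971-32384071: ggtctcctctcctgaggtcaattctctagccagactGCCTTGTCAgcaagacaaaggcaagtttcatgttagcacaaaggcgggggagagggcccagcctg

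The strongest MAFK region of either locus lay upstream of Hbb-y, the embryonic beta-globin gene at chr7:103851749-103853216 on the minus strand. The region spanned chr7:103860950-103861214 in intergenic DNA, and its summit lay 7856 bp upstream of the Hbb-y TSS. Its deposited signal value was 82.0 for replicate 1, 118 for replicate 2 and 201 for both pooled. The signal value is a score whose scale is not stated, so it is used here only to rank and describe regions. Words such as weaker refer to this score within a list. The region ranked 582 among the 264306 relaxed regions of replicate 1 and 219 among the 300000 of replicate 2. Among the optimal regions it ranked 352, or 2.09% from the top, against a median signal of 27.9 over all optimal regions. Both replicates thus placed it near the top of their lists, and their summits lay 0 and 3 bp from the pooled one.

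The other beta-globin regions were far weaker. A pair of overlapping regions lay in intergenic DNA 66228 and 66448 bp upstream of Hbb-y, where the nearest protein-coding gene was the olfactory receptor gene Olfr631. The first, chr7:103919296-103919591, had a pooled signal of 13.1 and ranked 95.0% from the top of the optimal list. The second, chr7:103919516-103919811, had a pooled signal of 6.48 and ranked 98.7% from the top. Both matched the same region in each replicate, with signals of 9.07 in replicate 1 and 7.47 in replicate 2, so they hold 1 replicate measurement between them and not 2. The −log10 q-value of the second was 0.843. In the optimal list no summit lay inside a beta-globin gene or nearer to any of them than the region upstream of Hbb-y.

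**Figure D1:**
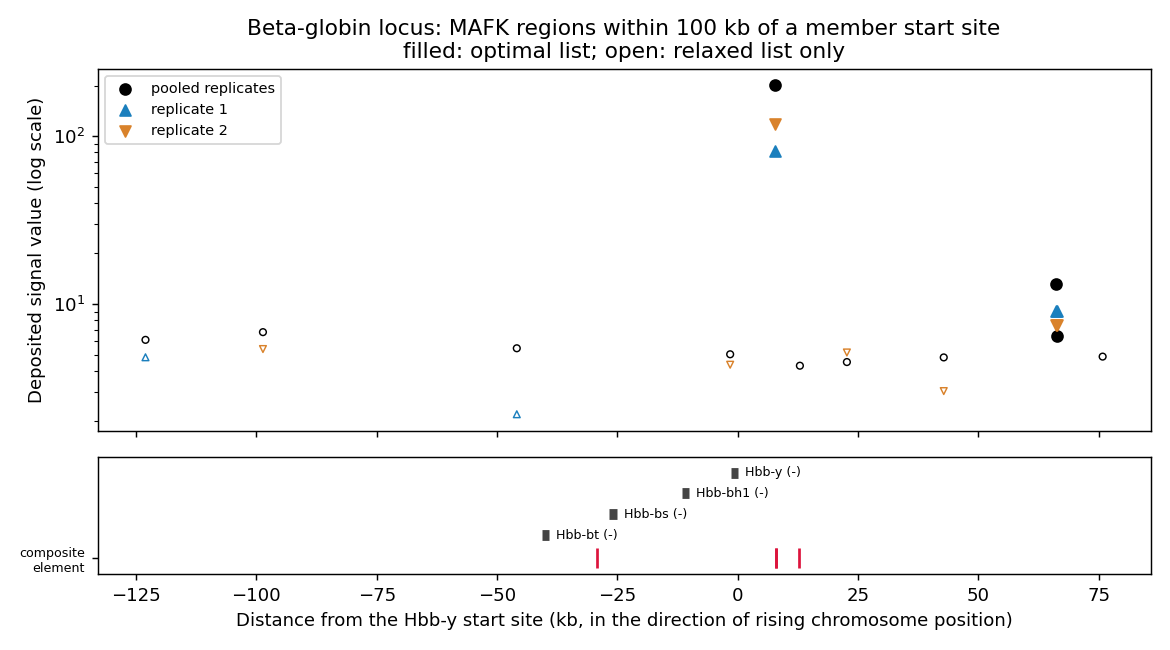
MAFK regions of the beta-globin locus. The upper panel plots the deposited signal value on a log axis against distance from the Hbb-y start site in kb for the pooled list (circles) and the replicates (triangles), with optimal regions filled. The lower panel shows the genes with their strand and the exact composite elements. The region 7.86 kb upstream of Hbb-y reached 201 in the pooled list, and every region outside the optimal list stayed at or below 6.80. The weakest optimal region, at 6.48, lay below that value.

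Distances from the adult genes were larger. The nearest optimal summit to Hbb-bh1, a further embryonic gene, was 17908 bp from its TSS. For the adult genes Hbb-bs and Hbb-bt it was 32976 and 47076 bp away. For all 4 beta-globin genes this was the same region.

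At the alpha-globin locus 3 optimal regions of nearly equal pooled signal were found, each above the median of all optimal regions. The first, chr11:32243253-32243548, lay in an intron of Nprl3, a gene of the GATOR1 complex that restrains mTORC1 signalling. Its summit was 3460 bp upstream of the nearest Nprl3 TSS, 1 of 14 annotated, and 33.0 kb upstream of Hba-x. It had a signal of 15.8 in replicate 1, 18.7 in replicate 2 and 37.9 in the pooled list, and ranked 34.5% from the top of the optimal list.

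The second region, chr11:32278471-32278766, lay just past the 3′ end of Hba-x, the embryonic zeta-globin gene, with its summit 1726 bp downstream of the nearer of the 2 Hba-x TSSs. Its signal was 15.4 in replicate 1, 20.8 in replicate 2 and 37.0 pooled, at 35.6% from the top. The same summit was 4892 bp from Hba-a1 and 17870 bp from Hba-a2, the adult genes, which had no nearer optimal region. It was the optimal region closest to a TSS of any member.

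The remaining region, chr11:32383873-32384168, lay in an intron of Sh3pxd2b, which encodes an adaptor protein of podosomes, 87393 bp from an Hba-a2 TSS. Its signal was 10.1 in replicate 1, 28.8 in replicate 2 and 39.7 pooled. It ranked 12232 in replicate 1 and 3484 in replicate 2, the widest gap in rank between the replicates among the alpha-globin regions. The replicates ordered the 3 alpha-globin regions oppositely: the Sh3pxd2b region was lowest in replicate 1 and highest in replicate 2, so their order was not resolved.

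**Figure D2:**
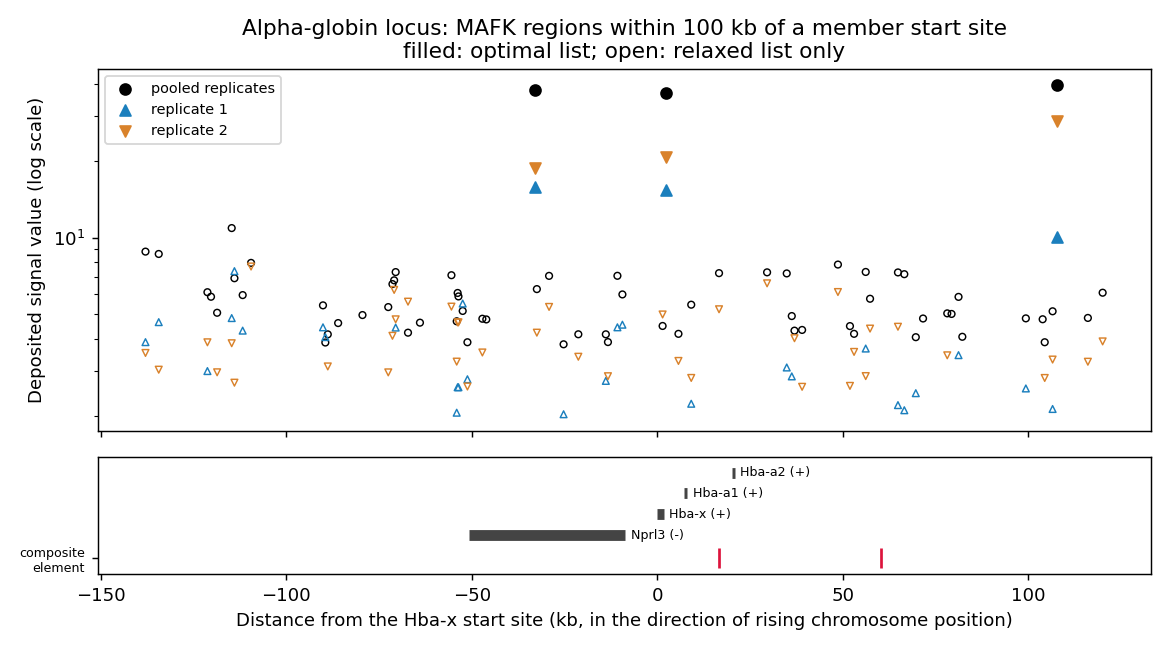
MAFK regions of the alpha-globin locus. The upper panel plots the deposited signal value on a log axis against distance from the Hba-x start site in kb, with optimal regions filled. The lower panel shows the genes with their strand and the composite elements. The 3 optimal regions reached 37.0 to 39.7 in the pooled list and the other regions 3.82 to 10.9.

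All 6 optimal regions overlapped a relaxed region of both replicates, as did 97.8% of all optimal regions. Both conservative lists also held all 6. The thresholded lists of single replicates were stricter: 2 of the 6, the region upstream of Hbb-y and that downstream of Hba-x, lay in both replicates' lists, beside 35.4% over the optimal list. The Sh3pxd2b region lay in that of replicate 2 only. The distal beta pair and the Nprl3 region lay in neither, and the distal pair was also missing from the second processing run's list of both replicates, which held the Nprl3 region.

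**Figure D3:**
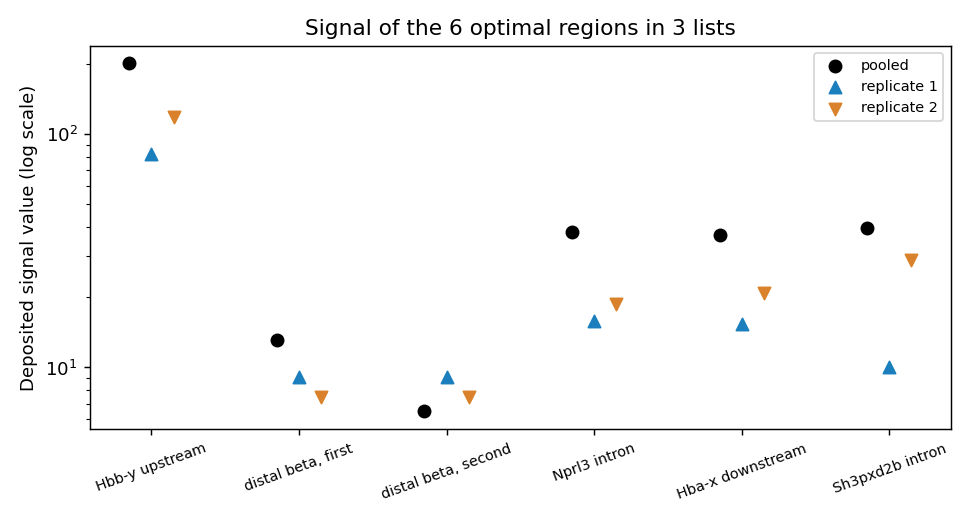
Deposited signal value on a log axis for the 6 optimal regions in the pooled list and in the lists of replicates 1 and 2. The region upstream of Hbb-y was highest in all 3 lists, and the distal beta regions share 1 point per replicate, at 9.07 and 7.47.

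By gene, 4 of the 8 members had an optimal summit within 10 kb of a TSS: Hbb-y, Nprl3, Hba-x and Hba-a1, of which the last 2 share 1 region. Over all protein-coding genes the share was 26.9%. Within 100 kb it was 8 of 8 members, beside 75.3% of protein-coding genes. The members share regions, so these counts rest on 3 and 6 regions and not on independent genes. Nprl3 was counted within 10 kb only through start sites inside the gene. Its 5′ end, at chr11:32267707, lay farther than 10 kb from the summit.

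The sequence elements differed between the regions. Both strands were searched within 50 bp of each summit, and the composite element contains an AP-1 element, an antioxidant response element core and, on the other strand, a MAF core, so these matches overlap. The region upstream of Hbb-y held 2 exact composite elements, at chr7:103861084-103861093 and chr7:103861094-103861103, on the same strand with no base between them. Their centres were 16.5 and 26.5 bp from the summit. A further MAF core ended on the base before the first of them. It was the only 1 of the 6 regions with an exact composite element, beside 28.2% of all optimal regions.

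The MAF core was in 5 of the 6 regions, beside 62.8% of all optimal regions, and was missing from the second distal beta region. The antioxidant response element core was in 4 of the 6, beside 60.3%. In the first distal beta and Nprl3 regions these matches lay within a T-MARE palindrome, the full MAF recognition element, with 2 mismatches. A palindrome with up to 2 mismatches was thus in 2 of the 6 regions, beside 39.2% of all optimal regions. In the Nprl3 region this match began on the summit base. The first distal beta region was 1 mismatch from the composite element. The region downstream of Hba-x held a MAF core 22.5 bp from its summit and no antioxidant response element core.

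Elements of the erythroid factors GATA1, TAL1 and KLF1 were searched in the same windows. A GATA element, which is GATA preceded by A or T and followed by A or G, was found in 1 of the 6 regions, that upstream of Hbb-y, and in 13.6% of all optimal regions. The same region held 2 TAL1 E-boxes (CAGNTG) and the second distal beta region 1, beside 25.3% of all optimal regions with any. A KLF1-type element (CCNCNCCC) was found in the Sh3pxd2b region only, and in 9.90% of all optimal regions. The core of the CTCF motif was found in 0 of 6, beside 2.98%. In windows of the same width, 1000 bp to each side of all optimal summits, GATA elements were in 17.3%. TAL1 E-boxes were in 21.9% of these windows, KLF1-type elements in 8.48% and the CTCF core in 0.787%.

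**Figure D4:**
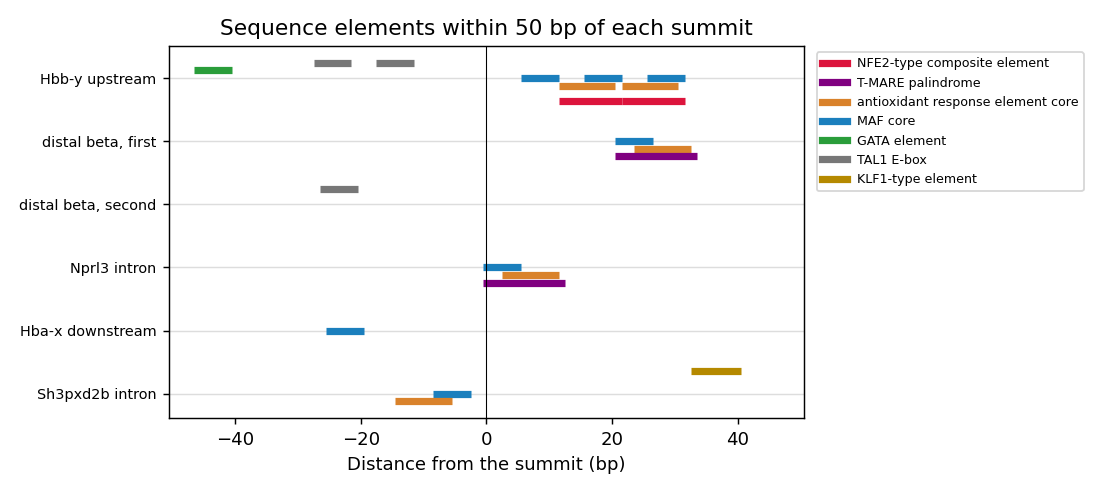
Sequence elements within 50 bp of the summit of each optimal region, with distance from the summit in bp on the horizontal axis and 1 line per region. Coloured bars mark matches on either strand. The paired composite elements appear only upstream of Hbb-y, and the second distal beta region holds a single E-box.

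The paired arrangement was followed across the genome, a comparison chosen after its values at Hbb-y were seen. The assembled chromosomes of GRCm38 held 12 places where an exact composite element was followed directly by another on the same strand. All 12 lay inside optimal regions, 9 regions in number since longer arrays count more than once, whereas 24.4% of the 22884 exact composite elements lay inside any optimal region and 50.6% inside any relaxed region. The 9 regions had pooled signals of 31.7 to 201, with a median of 106. The region upstream of Hbb-y had the highest signal of the 9 in the pooled list and in each replicate, and the next highest, near Nek2, reached 115 in the pooled list. This is a description of 9 regions and their shared libraries.

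Over all optimal regions the median signal was 25.2 with no composite element near the summit, 35.0 with 1 and 104 with 2 or more. A signal above that of the region upstream of Hbb-y was found for 126 of 12082 regions with none, 110 of 4261 with 1 and 115 of 493 with 2 or more.

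**Figure D5:**
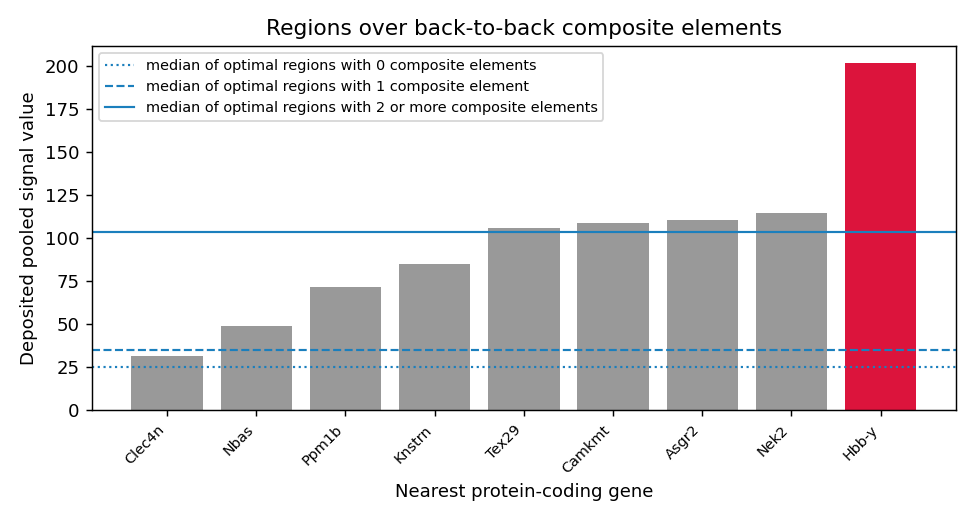
Pooled signal value of the 9 optimal regions that hold composite elements placed back to back, named by the nearest protein-coding gene. Lines give the median of optimal regions by their number of composite elements. The region upstream of Hbb-y, at 201, stands above the other 8, which reach 31.7 to 115.

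Exact composite elements were also searched across both loci. The windows within 100 kb of the members held 6 such elements, 4 in the beta-globin and 2 in the alpha-globin window. Of these, 2 lay in an optimal region, the pair upstream of Hbb-y, and 4 in any relaxed region, beside 24.4% and 50.6% over the genome. Each of the other 4 is printed with 10 bases on either side, on the strand of the element, with the element in capitals.
Near Hbb-bs, chr7:103823946-103823955: ttttccttatTGAGTCAGCAaaggaaaacc
Further upstream of Hbb-y, chr7:103866021-103866030: cagagaacttTGACTCAGCAaaccctaggc
Upstream of Hba-a2, chr11:32293046-32293055: gctgcagagaTGACTCAGCActgaaggatg
Beyond Hba-a2, chr11:32336591-32336600: caaaccagcaTGAGTCAGCAggagggatta
The element 3779 bp downstream of an Hbb-bs TSS lay in no region, and the nearest relaxed summit was 16617 bp away. The element 12805 bp upstream of Hbb-y lay 124 bp from the summit of a relaxed region of signal 4.29, found in neither replicate's list. Its letters are the same as those of each element of the pair, whose summit lay 4949 bp away with a signal of 201.

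The element upstream of Hba-a2 lay 4 bp from the summit of a relaxed region, chr11:32292894-32293189, itself 3447 bp upstream of the TSS. This region had a signal of 5.24 in replicate 2, no overlapping region in replicate 1, and 7.26 in the pooled list. It was the only relaxed region outside the optimal list at either locus with a composite element within 50 bp of its summit. The element began in a repeat-masked stretch. The element beyond Hba-a2, also repeat-masked, lay in no region.

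The relaxed regions outside the optimal list numbered 8 at the beta-globin locus and 64 at the alpha-globin locus. Over the whole relaxed list, 5.70% of regions overlapped the optimal list. Pooled signals ran from 4.29 to 6.80 at the beta locus, with a median of 4.94, and from 3.82 to 10.9 at the alpha locus, with a median of 5.15. The median over all relaxed regions outside the optimal list was 4.91, so both loci lay close to it.

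Replicate support for these regions was counted next. None of the 8 beta-globin regions overlapped both replicates' relaxed lists (0 of 8), and 14 of the 64 alpha-globin regions did, beside 16.8% over the genome. With 8 regions at the beta-globin locus, a difference between the loci was not tested. Over the 20 relaxed regions of either locus that both replicates held, the replicates' signals had a Spearman correlation of 0.62. Over the 14 outside the optimal list it was -0.10. Both values only describe these regions, which share libraries. Among the 20, the regions of the distal beta pair have the same replicate values. So do the neighbouring regions with summits at chr11:32222604 and chr11:32222827, which are also among the 14. Neither set therefore holds as many separate measurements as regions.

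An antioxidant response element core lay within 50 bp of the summit in 0 of the 8 beta-globin and 11 of the 64 alpha-globin regions, beside 12.5% over the genome. The strongest of the alpha-globin regions outside the optimal list were intergenic. The highest, with its summit at chr11:32161720 near the cytokine receptor gene Il9r, had a pooled signal of 10.9. The next had 8.81, 8.63, 7.96 and 7.84, the last near Sh3pxd2b. At the beta-globin locus the highest lay in a UTR of the olfactory receptor gene Olfr630 with 6.80, and the next had 6.12, 5.45, 5.02 and 4.86.

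Apart from the region upstream of Hba-a2 already given, the relaxed regions nearest to each gene were weak. The relaxed region nearest to an Hbb-y TSS lay 1559 bp downstream with a signal of 5.02, and was also the nearest to Hbb-bh1, at 8493 bp. The nearest to Hbb-bt had 5.45 at 6667 bp, and the same region was nearest to Hbb-bs at 20396 bp. For Hba-x a region of signal 4.50 lay 943 bp from a TSS, for Hba-a1 one of 4.20 at 1404 bp, and for Nprl3 one of 5.99 at 543 bp. None of these signals reached the lowest optimal region of the loci, at 6.48.

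The density of relaxed regions differed between the loci. The beta-globin window, 239 kb, held 4.60 relaxed regions per 100 kb and the alpha-globin window, 262 kb, held 25.6, against 11.0 over the assembled chromosomes. The beta-globin genes had 8 to 10 relaxed regions within 100 kb and the alpha-globin genes and Nprl3 52 to 60, where the median protein-coding gene had 36. Beside this, the beta-globin window was 38.4% G and C and 35.5% repeat-masked, and the alpha-globin window 47.9% and 22.3%; the part of base composition in the difference was not tested.

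Several members have near-identical copies. Of the 50-bp words of Hba-a1, 94.5% occurred more than once in the windows examined, and of those of Hba-a2, 93.4%. For Hbb-bt and Hbb-bs the shares were 71.4% and 67.2%, and for Hbb-bh1 and Hbb-y they were 0. How reads that match several places were treated is not given in the sources used here, so low signal inside these 4 duplicated genes is uncertain. None of the 6 optimal regions held a repeated word (0%), and the relaxed region upstream of Hba-a2 held 13.4%.

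The promoters of the members, taken as the 300-base windows around the start in RefSeq (GRCm38.p6), were found for 7 of the 8 members, all but Hbb-bh1. The composite element was in 0 of 7 and in 0.289% of all 32851 promoters. The MAF core was in 1, that of Hbb-y, beside 19.5%, and the antioxidant response element core in 4, those of Hbb-bt, Hbb-y, Nprl3 and Hba-x, beside 27.8%. GATA elements were in 5 of 7, beside 29.8%, and KLF1-type elements in 4, beside 49.5%. No optimal summit lay in these promoters.

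Outside the loci, the nearest optimal regions bound the description. At the beta-globin locus they lay 958 kb away in a UTR of Olfr566, with a signal of 91.3, and 366 kb away in a UTR of Trim6, with 23.6. At the alpha-globin locus they lay 151 kb away near Nsg2, with 23.1, and 195 kb away in an intron of Ubtd2, with 83.7. The farthest regions just inside the limit were those at 66448 and 87393 bp. No optimal region other than that upstream of Hbb-y and the distal pair lay in or around the beta-globin cluster over this span.

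Of 7 other globin genes and pseudogenes, 1, Hbq1b, a theta-globin gene, had an optimal summit within 10 kb, beside 26.9% of protein-coding genes. That summit belonged to the region downstream of Hba-x. A list of globin regulators and related genes, such as Alas2 and Eif2ak1, had 18 genes matched. Of these, 7 had an optimal summit within 10 kb: Klf1, Bach1, Zbtb7a, Myb, Sox6, Nfe2l2 and Mafg. The highest signals there were 222 at Mafg, another small MAF gene, and 145 at Bach1, a partner of MAFK. The share, 7 of 18, is read against the same 26.9% of protein-coding genes, and the list was not tested. Of the 5 listed flanking genes of the human alpha-globin cluster, 1 had an optimal summit within 10 kb, beside 26.9% of protein-coding genes. This was Luc7l, which lies on chromosome 17 in the mouse.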

How the data were processed

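ChIP-seq of MAFK in 2 replicates of ES-E14 cells was analysed from the deposited region lists; read depth is unknown, since they hold regions and not reads. Per the deposited text notes there were 2 processing runs. The first derived the optimal and a conservative list from relaxed lists of each replicate and of both pooled, and the second started from other alignments. For the aligner, peak caller, control handling and filters, names and settings were not given in the sources used here. The authors' signal value is a deposited score of unstated scale, as is the scaled score of the irreproducible discovery rate; the deposited −log10 q-value is also the authors'. Replicate lists were made separately, so ranks are compared and no test was run.

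Summits were compared with GENCODE vM21 start sites on mm10, overlap meant at least 1 bp, and sequence came from GRCm38. Python 3.11.15, numpy 2.4.6, pandas 2.3.3 and matplotlib 3.10.9 were used. Motif search and overlap were tested on simulated data. Named regions were every optimal region within 100 kb; of the relaxed ones, the 5 highest per locus, any with a composite element near the summit and the nearest to each member; and the nearest optimal region beyond 100 kb. Members and lists were chosen with earlier results of these data known. Alternatives were other distances, lists, windows, mismatches, overlaps and single replicates. The control experiment was not analysed here.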

Additional observations from a re-analysis of the deposited data

How the results depend on the processing

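The beta-globin count of 3 optimal regions fell to 1 within 10 kb, within 50 kb and in the second run's list of both replicates, and was 1 to 1 in the thresholded lists of single replicates. The alpha-globin count of 3 rose to 6 at 200 kb and was 1 to 2 without 1 replicate. The 78 relaxed regions became 5 at a −log10 q-value of 2 or more. Members with an optimal summit numbered 1 within 2 kb and 8 within 50 kb. The shares of all protein-coding genes at these distances were not computed, and several members share a region. The 2 regions in both thresholded lists became 6 with the relaxed lists. The 1 region with a composite element became 2 with 1 mismatch. The 11 relaxed regions with an antioxidant response element core became 5 within 25 bp and 18 within 100 bp. In single replicates, rank from the top of the relaxed list was 5.31% to 7.35% for the first distal beta region and also for the second (25.3% pooled), 2.08% to 2.71% for the Nprl3 region, 1.81% to 2.78% downstream of Hba-x and 1.16% to 4.63% for Sh3pxd2b. The region upstream of Hbb-y kept a rank of 0.0730% to 0.220%. Of the 12 back-to-back pairs, 11 lay in the thresholded list of either replicate, alternatives chosen after seeing the data. The cause of these differences was not tested. No paired analysis was possible because there was 1 group.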
